A study of Mus musculus with 12 samples.

Results

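The genes of the cell division machinery were examined in the mouse hippocampus as 38 named genes, 14 that act in S phase and 24 that act in mitosis, out of 24421 genes with a row in the count table. They are a list of gene symbols, drawn up with earlier results of these data known. Hippocampal RNA of mice aged 2 months was sequenced in 12 libraries, with 3 libraries per genotype and 4 genotypes: wild type (WT), 5xFAD, p75NTRko, and 5xFAD/p75NTRko, which carries both alterations. The 5xFAD line is a transgenic model of familial Alzheimer's disease whose transgenes are driven by the neuronal Thy1 promoter, and p75NTRko denotes loss of the p75 neurotrophin receptor gene Ngfr. All mice of all genotypes had received BrdU, a thymidine analogue that dividing cells build into new DNA, and the series set out to relate p75NTR to the birth of new hippocampal neurons. The labels do not name the Ngfr allele and do not say whether a library holds RNA of 1 mouse or of several.

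Before a cell copies its DNA, the MCM proteins are loaded on origins as a ring-shaped helicase, which the GINS complex and other factors then activate, while PCNA holds the polymerases on the template and ribonucleotide reductase and thymidylate synthase supply the nucleotides. Cyclin E opens this phase, and later the kinase CDK1 with cyclin B, the Aurora and Polo-like kinases, the kinetochore and the spindle motors carry the copied chromosomes through mitosis. In the adult hippocampus the dividing cells are mainly progenitors of the dentate gyrus, oligodendrocyte precursors and a few glial and vascular cells, so these transcripts are rare in RNA from the whole tissue.

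The S phase and mitosis classes are known for different promoter elements: E2F sites, which E2F factors bind in genes needed for replication, and the cell cycle homology region (CHR) with CCAAT boxes in genes expressed late in the cycle. RefSeq promoter windows (assembly GRCm38.p6, 250 bases before to 50 after the start) were at hand for 31 of the 38 genes, 11 of S phase and 20 of mitosis, not for Mcm4, Gins2, Ccne2, Ccna2, Aurkb, Kif20a and Tpx2. Both strands were searched for E2F sites (TTTGGCGC, TTTGCCGC, TTTCGCGC or TTTCCCGC), for CHR (TTTGAA or TTCGAA) and for CCAAT, and different motifs shared 2 bases over all these windows. Windows of 3 genes on which the results below turn are shown 5′ to 3′ on the gene's strand, the minus strand in each case, from 250 bases before the start to 30 bases after it, with the motif matches in capitals (a match on the other strand appears as its reverse complement, such as ATTGG for CCAAT). Mcm6 (chr1:128359676-128359955) is from the S phase class, Top2a (chr11:99024160-99024439) and Cenpf (chr1:189688057-189688336) from mitosis. In 27 of the 31 windows, bases after the start were found in an annotated transcript of the gene. In those of Mcm6, Mcm5, Aurka and Hmgb2 they were not.
Mcm6: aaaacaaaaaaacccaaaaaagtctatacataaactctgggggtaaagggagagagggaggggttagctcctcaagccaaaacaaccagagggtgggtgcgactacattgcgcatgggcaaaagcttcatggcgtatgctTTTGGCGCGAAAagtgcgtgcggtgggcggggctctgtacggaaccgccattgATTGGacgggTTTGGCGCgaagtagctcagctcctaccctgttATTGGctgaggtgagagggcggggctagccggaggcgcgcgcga
Top2a: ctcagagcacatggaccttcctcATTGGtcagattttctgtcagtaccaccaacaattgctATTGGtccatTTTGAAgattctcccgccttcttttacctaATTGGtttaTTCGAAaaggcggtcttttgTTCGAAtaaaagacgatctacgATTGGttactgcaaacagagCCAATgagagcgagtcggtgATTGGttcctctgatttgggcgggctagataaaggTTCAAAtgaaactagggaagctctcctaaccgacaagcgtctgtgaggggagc
Cenpf: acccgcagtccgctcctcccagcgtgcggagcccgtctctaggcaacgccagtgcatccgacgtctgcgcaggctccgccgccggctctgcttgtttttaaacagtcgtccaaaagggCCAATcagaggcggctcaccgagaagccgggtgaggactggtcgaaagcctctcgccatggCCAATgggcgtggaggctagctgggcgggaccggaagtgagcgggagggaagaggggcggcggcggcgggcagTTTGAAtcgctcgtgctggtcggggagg
The Mcm6 window held 3 E2F matches, of which 2 overlap on opposite strands, and 2 CCAAT boxes. The Top2a window held no E2F match but 4 CHR matches and 6 CCAAT boxes, and that of Cenpf 1 CHR match and 2 CCAAT boxes.

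Over both classes, E2F matches were found in 4 of 11 S phase windows (36.4%: Mcm3, Mcm5, Mcm6 and Mcm7) and in 1 of 20 mitosis windows (5%, Cdk1), against 2.32% of all 27025 windows. CHR matches were found in 16 of 20 mitosis windows (80%) and in 2 of 11 S phase windows (18.2%, Mcm2 and Mcm7), against 19.4% of all windows. The mitosis matches to CHR lay close to the start, with a median centre at -18 bases and 15 of 24 within 50 bases of it. CCAAT boxes were in 18 of 20 mitosis windows (90%), in 8 of 11 S phase windows (72.7%) and in 37.9% of all windows. Among the windows of genes that passed the expression filter, 3.83% held an E2F match, 12.7% a CHR match and 38.5% a CCAAT box. A match is a run of letters and does not show that a factor binds there.

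**Figure D1:**
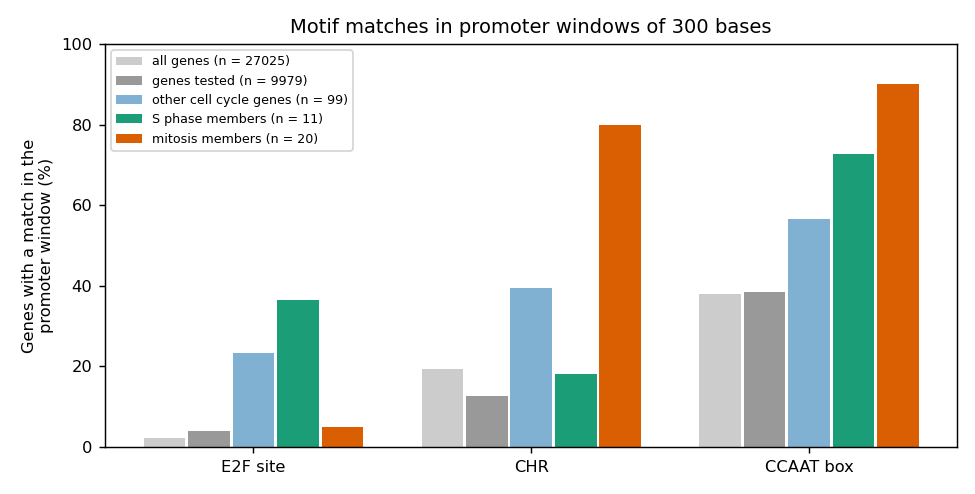
Share of genes (%) whose 300-base promoter window holds an E2F, CHR or CCAAT match, for all genes, genes tested, other cell cycle genes and both classes of members. The orange bar of mitosis members stands at 80% for CHR and the green bar of S phase members at 36.4% for E2F.

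The libraries held 4316739 to 6683613 gene-assigned counts each, so that 3 counts equal 0.446 to 0.690 CPM, the count scaled to the size of the library. The kit reads the 3′ end of each mRNA, so values are not divided by gene length. Gene positions below are on GRCm38.p6. Ngfr averaged 7.03 CPM in p75NTRko and 9.12 in 5xFAD/p75NTRko, more than in WT (1.003 CPM) or 5xFAD (1.10 CPM), which goes against the labels of the knockout libraries. Counts from the 3′ end of a transcript can lie outside a deleted part, so this value does not check the labels, and p75NTRko is used below as the label of the libraries. Thy1, whose regulatory sequence drives the transgenes, averaged 3197 CPM in 5xFAD and 2994 in 5xFAD/p75NTRko against 823 in WT and 722 in p75NTRko. Xist was at 360 to 439 CPM in all WT and 5xFAD/p75NTRko libraries and in p75NTRko replicate 1. It was at 1.53 to 3.58 CPM in all 5xFAD libraries and p75NTRko replicates 2 and 3. The comparison of 5xFAD with WT, and that of 5xFAD/p75NTRko with 5xFAD, therefore cannot be told apart from this Xist class. Those of p75NTRko with WT and of 5xFAD/p75NTRko with p75NTRko are partly bound to it, through p75NTRko replicates 2 and 3. Summed markers of hippocampal excitatory neurons were at 874 to 1255 CPM in WT, 1337 to 1655 in 5xFAD, 1387 to 1529 in p75NTRko and 1045 to 1488 in 5xFAD/p75NTRko. Summed markers of thalamus and habenula, which border the hippocampus, were at 475 to 661, 306 to 356, 271 to 298 and 256 to 810 CPM in the same order.

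The 38 genes together took 679 to 1131 counts in a library. In WT they summed to 135 CPM ± 10.8 (SD, n = 3), in 5xFAD to 149 ± 6.27, in p75NTRko to 173 ± 6.02 and in 5xFAD/p75NTRko to 143 ± 4.96. The p75NTRko libraries, at 168 to 180 CPM, lay above the other 9 libraries, which ranged from 124 to 155 CPM. No p is given for these sums. In RNA from whole tissue, the number of dividing cells, their RNA per cell and RNA of cells that do not divide cannot be told apart.

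The 14 S phase genes summed to 89.5, 73.0 and 95.9 CPM in the WT libraries, 96.4, 95.02 and 97.6 in 5xFAD, 107, 107 and 105 in the p75NTRko libraries, and 90.8, 97.3 and 86.1 in 5xFAD/p75NTRko. These are 450 to 704 counts a library, and the 95% exact Poisson interval, which covers counting error only, ran from 66.4 to 80.1 CPM for the lowest library and from 97.9 to 118 CPM for the highest. On the log2 scale the ratio of group means was 0.30 for p75NTRko against WT, 0.16 for 5xFAD against WT, -0.22 for 5xFAD/p75NTRko against p75NTRko and -0.08 for 5xFAD/p75NTRko against 5xFAD. The p75NTRko group was the highest, and its libraries did not overlap those of any other genotype. The other genotypes overlapped in part: the highest WT library, at 95.9 CPM, lay within the range of 5xFAD.

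The 24 mitosis genes summed to 46.0, 50.6 and 49.3 CPM in WT, 58.9, 53.5 and 45.2 in 5xFAD, 73.4, 64.8 and 63.5 in the p75NTRko libraries, and 49.1, 51.3 and 53.9 in 5xFAD/p75NTRko. The means were 48.6 ± 2.37, 52.6 ± 6.89, 67.2 ± 5.38 and 51.4 ± 2.41 CPM (SD, n = 3 each). All p75NTRko libraries lay above all others, while WT, 5xFAD and 5xFAD/p75NTRko overlapped with each other. The log2 ratio of means was 0.47 for p75NTRko against WT, -0.39 for 5xFAD/p75NTRko against p75NTRko, 0.11 for 5xFAD against WT and -0.03 for 5xFAD/p75NTRko against 5xFAD. Within the high Xist class, p75NTRko replicate 1 (73.4 CPM) lay above the 3 WT and 3 5xFAD/p75NTRko libraries. Within the low class, p75NTRko replicates 2 and 3 (64.8 and 63.5 CPM) lay above the 3 5xFAD libraries, and the S phase sums showed the same order in both classes. These orders cannot separate genotype from Xist class. In the high class replicate 1 is the only p75NTRko library, and the low class holds no WT library.

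**Figure D2:**
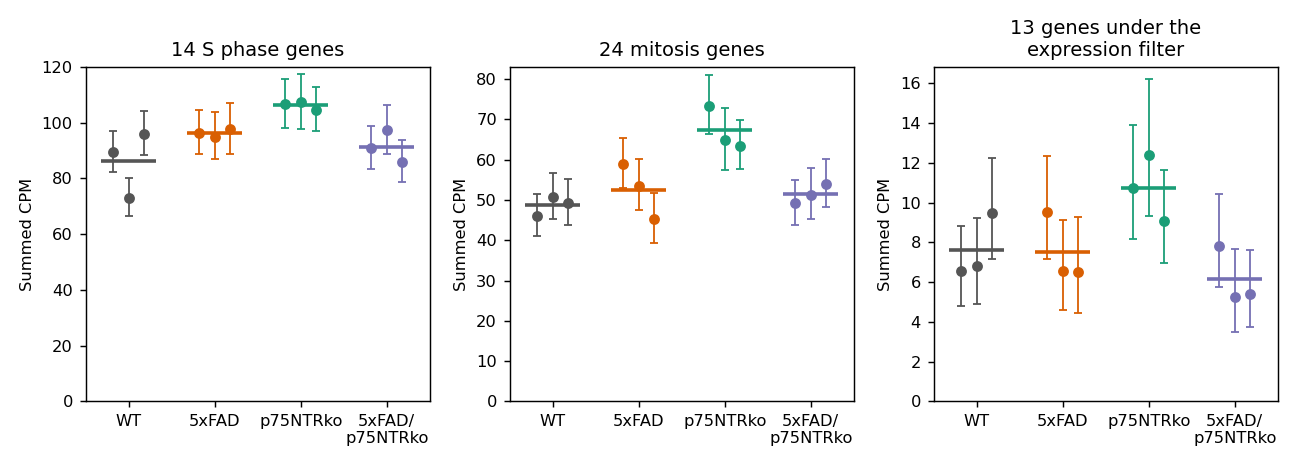
Summed CPM of the 14 S phase genes, the 24 mitosis genes and the 13 genes under the expression filter, by genotype. Points are libraries with 95% exact Poisson intervals for counting error, and horizontal bars are group means. The p75NTRko points lie above all others in the first and second panels (104.7 to 107.4 and 63.5 to 73.4 CPM) and overlap with other genotypes in the third.

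A few genes made up most of these differences. Of the 20.1 CPM by which the S phase sum of p75NTRko exceeded that of WT, Mcm6 gave 8.16, Mcm4 7.97 and Gins2 3.23, while Pcna went the other way by -2.05 CPM. Of the 18.6 CPM in the mitosis sum, Top2a gave 4.10, Hmgb2 3.78, Cenpf 3.26 and Birc5 1.73. Between p75NTRko and 5xFAD/p75NTRko the mitosis sum differed by -15.8 CPM, of which Top2a gave -4.97, Birc5 -2.33 and Cenpf -1.84. The genotype with the highest mean was p75NTRko for 23 of the 38 genes (8 of 14 in S phase, 15 of 24 in mitosis). Of the 25 that passed the expression filter it was p75NTRko for 14, and of all 13065 genes tested for 3002 (23.0%).

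Of the 38 genes, 25 passed the expression filter and entered the edgeR quasi-likelihood fit, 13 of 14 in S phase and 12 of 24 in mitosis. Members called are those with a Benjamini-Hochberg adjusted p at or under 0.05 over all genes tested, and by edgeR there were 0 of 25 in each of the 6 comparisons. The background of called genes was 0.0536% for 5xFAD against WT, 0% for p75NTRko against WT, 0.0383% for 5xFAD/p75NTRko against 5xFAD, 0% for 5xFAD/p75NTRko against p75NTRko, 0% for 5xFAD/p75NTRko against WT and 0.0383% for the interaction. The interaction is the log2 difference of 5xFAD/p75NTRko from 5xFAD minus that of p75NTRko from WT. DESeq2 called Top2a in the interaction and in 5xFAD/p75NTRko against p75NTRko, and no member in the other 4 comparisons. The background shares above are those of edgeR. The share of all genes called by DESeq2 is not reported here, so its calls of Top2a stand without a background. Of the 13 members under the expression filter, DESeq2 gave an adjusted p to 0 in that pair of genotypes and to 1 in the interaction. Over all genes DESeq2 called more than edgeR in each comparison, as counted in the closing section on processing. The comparisons share libraries, so their values are given side by side and are not independent.

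**Figure D3:**
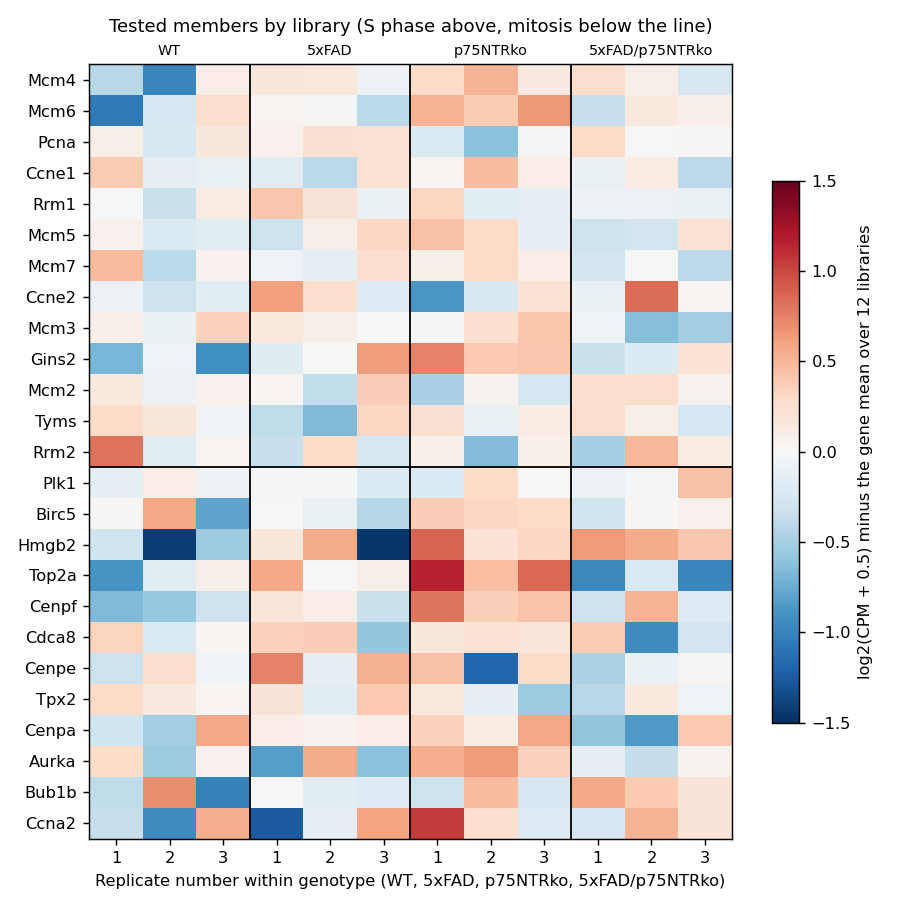
Relative level of the 25 tested genes (rows, S phase above the line and mitosis below it, each by mean CPM) in the 12 libraries (columns), as log2(CPM + 0.5) minus the mean of the gene, clipped at the ends of the scale. Top2a is red in the p75NTRko columns (5.29 to 8.90 CPM) and blue in the 5xFAD/p75NTRko columns (1.64 to 3.12 CPM).

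The helicase genes had the most counts of the S phase class. Mcm4, an MCM subunit (chr16:15623897-15637400), was at 12.3, 8.11 and 17.8 CPM in WT, 18.7, 18.4 and 15.6 in 5xFAD, 20.2, 23.7 and 18.1 in the p75NTRko libraries, and 19.98, 17.5 and 13.9 in 5xFAD/p75NTRko. All p75NTRko libraries were above all WT libraries, and the other pairs of genotypes overlapped. Relative to WT, the log2 fold change of p75NTRko was 0.70 (SE 0.230, edgeR adjusted p = 0.337), and that of 5xFAD 0.47 (SE 0.233, edgeR adjusted p = 0.380). Without WT replicate 2 these values were 0.46 and 0.23, and without WT replicate 3 that of 5xFAD was 0.78 (edgeR adjusted p = 0.0951).

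Mcm6, another MCM subunit (chr1:128331575-128359705, minus strand), was at 5.98, 10.7 and 15.4 CPM in WT, 13.4, 13.1 and 9.68 in 5xFAD, 18.9, 17.0 and 20.7 in the p75NTRko libraries, and 10.2, 14.4 and 13.8 in 5xFAD/p75NTRko. The p75NTRko libraries were the 3 highest of the 12. In the fit its log2 fold change was 0.83 (SE 0.262, edgeR adjusted p = 0.328) for p75NTRko against WT and -0.57 (SE 0.259, edgeR adjusted p = 0.750) for 5xFAD/p75NTRko against p75NTRko. Without WT replicate 1, its lowest library, the first value was 0.53. The Mcm6 promoter is the one shown above with 3 E2F matches.

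Mcm3, also an MCM subunit (chr1:20802966-20820312, minus strand), followed another order. It was at 4.48, 3.89 and 5.47 CPM in WT, 4.75, 4.51 and 4.21 in 5xFAD, 4.26, 5.06 and 5.80 in the p75NTRko libraries, and 3.997, 2.53 and 2.79 in 5xFAD/p75NTRko. Its 5xFAD/p75NTRko libraries were below all 5xFAD and all p75NTRko libraries but overlapped with WT. The log2 fold change was -0.69 against p75NTRko (SE 0.269, edgeR adjusted p = 0.713), -0.52 against 5xFAD (SE 0.273, edgeR adjusted p = 0.980) and -0.56 against WT (SE 0.268, edgeR adjusted p = 0.512).

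For the 3 remaining helicase subunits the p75NTRko and WT libraries overlapped. In that comparison the log2 fold change was 0.33 for Mcm5 (SE 0.249), 0.07 for Mcm7 (SE 0.248) and -0.32 for Mcm2 (SE 0.301), and that of Mcm7 had the other sign without WT replicate 2 (-0.14) or p75NTRko replicate 2 (-0.0030). Mcm7 was lower in all 5xFAD/p75NTRko libraries (4.92 to 6.63 CPM) than in all p75NTRko libraries (7.04 to 8.28 CPM). Exons of Mcm7 overlap the microRNA genes Mir25 and Mir93 on the same strand.

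Gins2, a subunit of the GINS complex that joins the MCM ring in the active helicase (chr8:120581266-120589075), was at 2.24, 3.73 and 1.82 CPM in WT, 3.40, 3.94 and 6.31 in 5xFAD, 6.86, 5.29 and 5.35 in the p75NTRko libraries, and 2.997, 3.31 and 4.59 in 5xFAD/p75NTRko. The p75NTRko libraries were above all WT and all 5xFAD/p75NTRko libraries, and 5xFAD spanned the gap between these groups. Its log2 fold change was 1.16 for p75NTRko against WT (SE 0.332, edgeR adjusted p = 0.270), 0.79 for 5xFAD against WT (SE 0.341, edgeR adjusted p = 0.336) and -1.46 for the interaction (SE 0.469, edgeR adjusted p = 0.402). Without 5xFAD replicate 3 that of 5xFAD against WT was 0.49. Gins2 overlaps exons of Gse1 on the opposite strand, as exons of 12 of the 38 genes overlap such a gene, and whether counting used strand is not given in the sources used here.

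Pcna, the sliding clamp (chr2:132249286-132253180, minus strand), was at 11.5, 9.09 and 12.3 CPM in WT, 11.4, 12.8 and 12.6 in 5xFAD, 9.27, 6.90 and 10.6 in the p75NTRko libraries, and 13.5, 10.9 and 10.98 in 5xFAD/p75NTRko. The p75NTRko group, the highest in the class sum, had the lowest mean of Pcna, and all its libraries were below all 5xFAD/p75NTRko libraries. The log2 fold change of 5xFAD/p75NTRko against p75NTRko was 0.39 (SE 0.194, edgeR adjusted p = 0.784), and that of p75NTRko against WT -0.28 (SE 0.194, edgeR adjusted p = 0.596). Without p75NTRko replicate 2 these values were 0.25 and -0.14, and without p75NTRko replicate 3 the second was -0.43.

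Cyclin E is encoded by Ccne1 and Ccne2. Ccne1 (chr7:38097984-38107490, minus strand) was at 13.3, 9.09 and 9.29 CPM in WT, 8.999, 7.51 and 11.8 in 5xFAD, 10.4, 14.0 and 10.9 in the p75NTRko libraries, and 9.33, 10.9 and 7.54 in 5xFAD/p75NTRko. Its groups overlapped in all 5 pairs compared, and its log2 fold changes lay between -0.34 and 0.14. Ccne2 averaged 3.59, 5.09, 3.46 and 5.30 CPM in WT, 5xFAD, p75NTRko and 5xFAD/p75NTRko, also with overlap.

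Of the genes of nucleotide supply, Rrm1, Rrm2 and Tyms overlapped in each pair of genotypes compared. Rrm1, the large subunit of ribonucleotide reductase, averaged 7.15 CPM in WT, 8.53 in 5xFAD, 7.60 in p75NTRko and 6.97 in 5xFAD/p75NTRko, and its partner Rrm2 2.66, 1.95, 1.87 and 2.25 CPM. Tyms, thymidylate synthase, averaged 3.64, 2.82, 3.48 and 3.38 CPM in the same order. Tk1, thymidine kinase, which also phosphorylates BrdU, had 21 counts over the 12 libraries and was not tested.

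**Figure D4:**
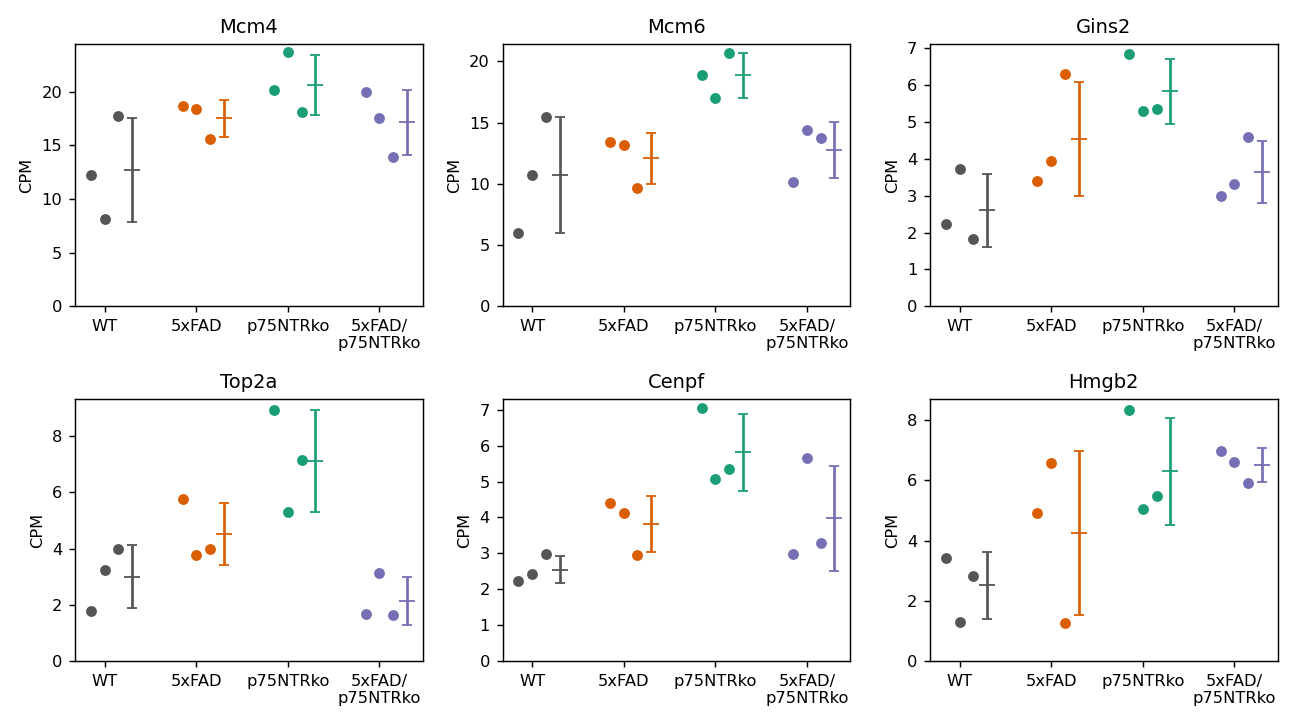
CPM of Mcm4, Mcm6, Gins2, Top2a, Cenpf and Hmgb2 in the 12 libraries by genotype. Points are libraries, and the bars beside them are the group mean ± SD (n = 3). All p75NTRko points lie above all WT points in each panel, and the 5xFAD/p75NTRko points of Top2a (1.64 to 3.12 CPM) lie below the 5xFAD points.

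In the mitosis class, Top2a encodes DNA topoisomerase II alpha, which untangles sister chromatids (chr11:98992947-99024199, minus strand). It was at 1.79, 3.25 and 3.98 CPM in WT, 5.77, 3.76 and 3.997 in 5xFAD, 8.90, 5.29 and 7.14 in the p75NTRko libraries, and 1.67, 3.12 and 1.64 in 5xFAD/p75NTRko. The p75NTRko libraries were above all WT and all 5xFAD/p75NTRko libraries, and the 5xFAD/p75NTRko libraries were also below all 5xFAD libraries. The log2 fold change was 1.25 for p75NTRko against WT (SE 0.340, edgeR adjusted p = 0.258), -1.75 for 5xFAD/p75NTRko against p75NTRko (SE 0.361, edgeR adjusted p = 0.265) and -1.10 for 5xFAD/p75NTRko against 5xFAD (SE 0.377, edgeR adjusted p = 0.751). The interaction was -2.35 (SE 0.507, edgeR adjusted p = 0.286). By DESeq2 the adjusted p was 0.0264 for 5xFAD/p75NTRko against p75NTRko (log2 fold change -1.76) and 0.0431 for the interaction (-2.36). Over the other settings tried, the adjusted p of that pair ranged up to 0.920 and that of the interaction up to 0.998, with the same sign throughout. An exon of Top2a overlaps the annotated gene Gm23451 on the same strand.

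Cenpf, a large kinetochore protein (chr1:189640606-189688107, minus strand), was at 2.24, 2.43 and 2.986 CPM in WT, 4.41, 4.13 and 2.95 in 5xFAD, 7.04, 5.06 and 5.35 in the p75NTRko libraries, and 2.997, 5.65 and 3.28 in 5xFAD/p75NTRko. The p75NTRko libraries were above all WT and all 5xFAD libraries, and the 5xFAD/p75NTRko libraries were above all WT libraries though only just (2.997 against 2.986 CPM). The log2 fold change was 1.19 for p75NTRko against WT (SE 0.307, edgeR adjusted p = 0.242), 0.62 for 5xFAD/p75NTRko against WT (SE 0.318, edgeR adjusted p = 0.524), 0.59 for 5xFAD against WT (SE 0.321, edgeR adjusted p = 0.421) and -1.16 for the interaction (SE 0.436, edgeR adjusted p = 0.479). Without 5xFAD/p75NTRko replicate 2 the value of 5xFAD/p75NTRko against WT was 0.30. Its 5xFAD/p75NTRko and 5xFAD libraries overlapped (log2 fold change 0.03, SE 0.310), where those of Top2a did not.

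Hmgb2, a chromatin protein that bends DNA and is abundant in cycling progenitors (chr8:57511843-57515999), was at 3.44, 1.30 and 2.82 CPM in WT, 4.92, 6.57 and 1.26 in 5xFAD, 8.34, 5.06 and 5.5 in the p75NTRko libraries, and 6.99, 6.63 and 5.90 in 5xFAD/p75NTRko. Both groups labelled as lacking p75NTR lay above all WT libraries, and 5xFAD, from 1.26 to 6.57 CPM, overlapped with every other genotype. Its log2 fold change was 1.31 for p75NTRko against WT (SE 0.443, edgeR adjusted p = 0.342) and 1.35 for 5xFAD/p75NTRko against WT (SE 0.440, edgeR adjusted p = 0.439). Between 5xFAD/p75NTRko and p75NTRko it was 0.04 (SE 0.403), and the 5xFAD/p75NTRko libraries lay within the range of p75NTRko.

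Plk1, the Polo-like kinase that starts mitosis (chr7:122159435-122169884), had the most counts of the mitosis class and varied little. It was at 8.97, 10.7 and 9.46 CPM in WT, 9.85, 9.77 and 8.63 in 5xFAD, 8.53, 12.2 and 9.96 in the p75NTRko libraries, and 9.33, 9.75 and 13.8 in 5xFAD/p75NTRko. Its log2 fold changes lay between -0.04 and 0.22 in the 5 comparisons of genotypes, with overlap in each.

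Of the kinetochore genes, Cenpe, a motor that moves chromosomes to the spindle equator (chr3:135212563-135273540), was at 2.09, 3.41 and 2.65 CPM in WT, 4.92, 2.44 and 4.21 in 5xFAD, 3.89, 0.920 and 3.42 in the p75NTRko libraries, and 1.83, 2.53 and 2.79 in 5xFAD/p75NTRko. Its groups overlapped throughout, and the log2 fold change of 5xFAD/p75NTRko against 5xFAD was -0.69 (SE 0.430, edgeR adjusted p = 0.980). Cenpa, the histone variant of centromeres, averaged 2.52, 2.69, 3.37 and 2.04 CPM in WT, 5xFAD, p75NTRko and 5xFAD/p75NTRko. Bub1b, a kinase-like protein of the spindle checkpoint, was at 1.80 to 2.5 CPM in 5xFAD/p75NTRko, above the 1.26 to 1.53 CPM of 5xFAD (log2 fold change 0.64, SE 0.512).

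The genes of the chromosomal passenger complex that were tested are Birc5 (survivin) and Cdca8 (borealin). Birc5 averaged 7.76 ± 3.69 CPM in WT, 6.63 ± 1.04 in 5xFAD, 9.49 ± 0.308 in p75NTRko and 7.16 ± 1.01 in 5xFAD/p75NTRko (SD, n = 3), and all p75NTRko libraries were above all 5xFAD/p75NTRko libraries. Cdca8 averaged 3.26, 3.37, 3.59 and 2.66 CPM. Of the spindle genes, Aurka, the Aurora A kinase, was at 2.53 to 3.22 CPM in p75NTRko, above WT (1.14 to 2.39 CPM) and 5xFAD/p75NTRko (1.36 to 1.97 CPM), with a log2 fold change of 0.63 against WT (SE 0.432, edgeR adjusted p = 0.588), or 0.39 without WT replicate 2. Its activator Tpx2 averaged 2.95, 2.96, 2.30 and 2.405 CPM in WT, 5xFAD, p75NTRko and 5xFAD/p75NTRko. Ccna2, cyclin A, averaged 0.966, 1.001, 1.68 and 1.30 CPM with overlap in each pair compared. Birc5, Aurka, Bub1b and Mcm7 were named after their values were seen.

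The 13 genes under the expression filter had 15 to 92 counts each over all 12 libraries. They are the mitotic kinase Cdk1 and its cyclins Ccnb1 and Ccnb2, the kinases Aurkb and Bub1, the spindle proteins Prc1, Kif11, Kif20a and Nusap1, the anaphase factors Cdc20 and Ube2c, the proliferation marker Mki67, and Tk1. Mki67 had 5, 5 and 7 counts in WT, 13, 1 and 5 in 5xFAD, 7, 7 and 5 in the p75NTRko libraries, and 4, 1 and 5 in 5xFAD/p75NTRko. With no filter on low counts its log2 fold changes lay between -1.02 for 5xFAD/p75NTRko against p75NTRko (SE 0.730, edgeR adjusted p = 0.917) and 0.38 for p75NTRko against WT (SE 0.675, edgeR adjusted p = 0.898) in the 5 comparisons of genotypes. In that fit 0 of the 13 genes were called in each comparison. DESeq2 also called 0, but gave all 13 an adjusted p only for p75NTRko against WT and 5xFAD/p75NTRko against 5xFAD. It gave one to 7 for 5xFAD/p75NTRko against WT and to 1 in the interaction. For 5xFAD against WT and 5xFAD/p75NTRko against p75NTRko it gave one to 0, so none could be called there. The genes at an unadjusted p at or under 0.05 were Kif11 in 5xFAD/p75NTRko against p75NTRko (lower), Ccnb1 in p75NTRko against WT (higher) and Tk1 in the interaction (below 0) by unfiltered edgeR, and Tk1 in the interaction by DESeq2. Together the 13 genes summed to 7.62 CPM ± 1.60 in WT, 7.53 ± 1.71 in 5xFAD, 10.7 ± 1.67 in p75NTRko and 6.17 ± 1.44 in 5xFAD/p75NTRko (SD, n = 3). The p75NTRko libraries, at 9.07 to 12.4 CPM, overlapped with the highest WT library (9.46 CPM) and the highest 5xFAD library (9.51 CPM) and lay above all 5xFAD/p75NTRko libraries (5.26 to 7.83 CPM).

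For p75NTRko against WT, 6 of the 25 tested genes had an unadjusted edgeR p at or under 0.05, against 11.5% of all genes tested, and all 6 were higher: Cenpf, Top2a, Gins2, Mcm6, Mcm4 and Hmgb2. The groups did not overlap for 7 of 25, these 6 and Aurka, against 16.4% of all genes tested. The median log2 fold change was 0.13 over the 25 genes and -0.0006 over all genes tested. It was 0.36 over the 12 mitosis genes, of which 11 were above 0, and 0.09 over the 13 S phase genes, of which 8 were above 0. Beside these values, 8 of 10 markers of hippocampal excitatory neurons had an unadjusted p at or under 0.05 in this comparison (7 higher), as had 6 of 9 markers of thalamus and habenula (all lower) and 3 of 8 tested markers of the neurogenic lineage (all higher). Markers of neurogenic lineage, such as Dcx and Sox11 of young neurons, summed to 256 to 308 CPM in WT and 317 to 360 in p75NTRko, none of their 11 being at 0 in all libraries. All 10 choroid plexus markers (median 0.62) and 4 of 5 ependymal markers (median 0.70) were above 0, with 0 of either at that p. The part of these markers in the result was not tested.

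For 5xFAD/p75NTRko against p75NTRko, 3 of 25 had an unadjusted p at or under 0.05, against 6.59% of all genes tested, and all were lower: Top2a, Mcm3 and Mcm6. The groups did not overlap for 8 of 25, against 12.3% of all genes tested: Top2a, Mcm3, Mcm6, Gins2, Aurka, Mcm7 and Birc5 were lower and Pcna higher. The median log2 fold change was -0.33 over the 25 genes and 0.01 over all genes tested. This comparison is partly bound to Xist class, which was high in all 5xFAD/p75NTRko libraries and low in p75NTRko replicates 2 and 3. Markers of oligodendrocyte precursors, which also divide, summed to 238 to 278 CPM in p75NTRko and 184 to 227 in 5xFAD/p75NTRko, with 3 of 9 at an unadjusted p at or under 0.05 and lower. Ependymal markers summed to 33.3 to 62.7 CPM and 14.8 to 45.0 CPM, with 4 of 5 lower at that p. Of the neurogenic lineage 3 of 8 tested markers had that p, 2 lower and 1 higher, and of thalamus and habenula 3 of 9, all higher. Choroid plexus markers ran from 4418 to 7226 CPM in p75NTRko and from 175 to 7177 in 5xFAD/p75NTRko, the highest being replicate 1, which also held the most thalamic and habenular signal (810 CPM). Their part in the result was not tested, and without that replicate the log2 fold change of Top2a was -1.61 (edgeR adjusted p = 0.186).

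For 5xFAD against WT, 1 of 25 had an unadjusted p at or under 0.05 (Gins2, higher), against 13.9% of all genes tested, and the groups overlapped for all 25, against 19.6% of all genes tested that did not overlap. The median log2 fold change was 0.06 over the members and -0.004 over all genes. Both shares of the members were smaller than those of all genes. In this comparison 6 of 10 markers of hippocampal excitatory neurons had an unadjusted p at or under 0.05 (5 higher), as had 4 of 9 of thalamus and habenula (all lower). All 10 choroid plexus markers were below 0 (median -1.34), 5 of them without overlap and 0 at that p. They summed to 2399 to 5916 CPM in WT and 318 to 1923 in 5xFAD. The part of all these markers in the result was not tested. Without WT replicate 3 the count of members at that p was 2, and without WT replicate 1 it was 0, with no share over all genes from those fits beside it.

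For 5xFAD/p75NTRko against 5xFAD, 1 of 25 had an unadjusted p at or under 0.05 (Top2a, lower), against 5.08% of all genes tested. The groups did not overlap for 3, Top2a and Mcm3 lower and Bub1b higher, against 11.2%. The median was -0.03 over the members and 0.01 over all genes. Beside the lower Top2a, all 9 markers of oligodendrocyte precursors were below 0 (median -0.32), 3 of them at that p and 4 without overlap, and their part in the result was not tested. Without 5xFAD replicate 1 the first count was 0, and without 5xFAD replicate 2 or 5xFAD/p75NTRko replicate 1 it was 2. For 5xFAD/p75NTRko against WT, 1 of 25 (Hmgb2, higher) compared with 9.95%, and 2 without overlap (Hmgb2 and Cenpf, both higher) with 11.5%, at a median of -0.04 against 0.004. Without WT replicate 2 the count at that p was 5, and without WT replicate 3 or 5xFAD/p75NTRko replicate 1 it was 3. No share over all genes is given for the fits with a library left out, so these shifts cannot be read as results about the members.

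In the interaction 4 of 25 genes had an unadjusted edgeR p at or under 0.05, against 9.32% of all genes tested, and all were below 0: Top2a, Gins2, Cenpf and Mcm4 (-0.73, SE 0.325, edgeR adjusted p = 0.522). The median was -0.39 over the 25 genes, with 17 below 0, and 0.002 over all genes tested. In the interaction 8 of 10 markers of hippocampal excitatory neurons also had an unadjusted p at or under 0.05 (7 below 0, median -0.88), as had 5 of 9 of thalamus and habenula (all above 0, median 1.504), 3 of 8 of the neurogenic lineage (2 below 0, median -0.35) and 2 of 9 of oligodendrocyte precursors (both below 0, median -0.36). The part of these markers in the result was not tested. Without p75NTRko replicate 1 the count of members was 2, with no share over all genes from that fit beside it. The interaction contains the comparison of 5xFAD/p75NTRko with 5xFAD, which cannot be told apart from Xist class. Its comparison of p75NTRko with WT is partly bound to that class, through the low Xist of p75NTRko replicates 2 and 3. For these 4 genes the fitted log2 difference of p75NTRko from WT was 0.70 to 1.25, and that of 5xFAD/p75NTRko from 5xFAD -1.10 for Top2a, -0.30 for Gins2, -0.04 for Mcm4 and 0.03 for Cenpf.

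**Figure D5:**
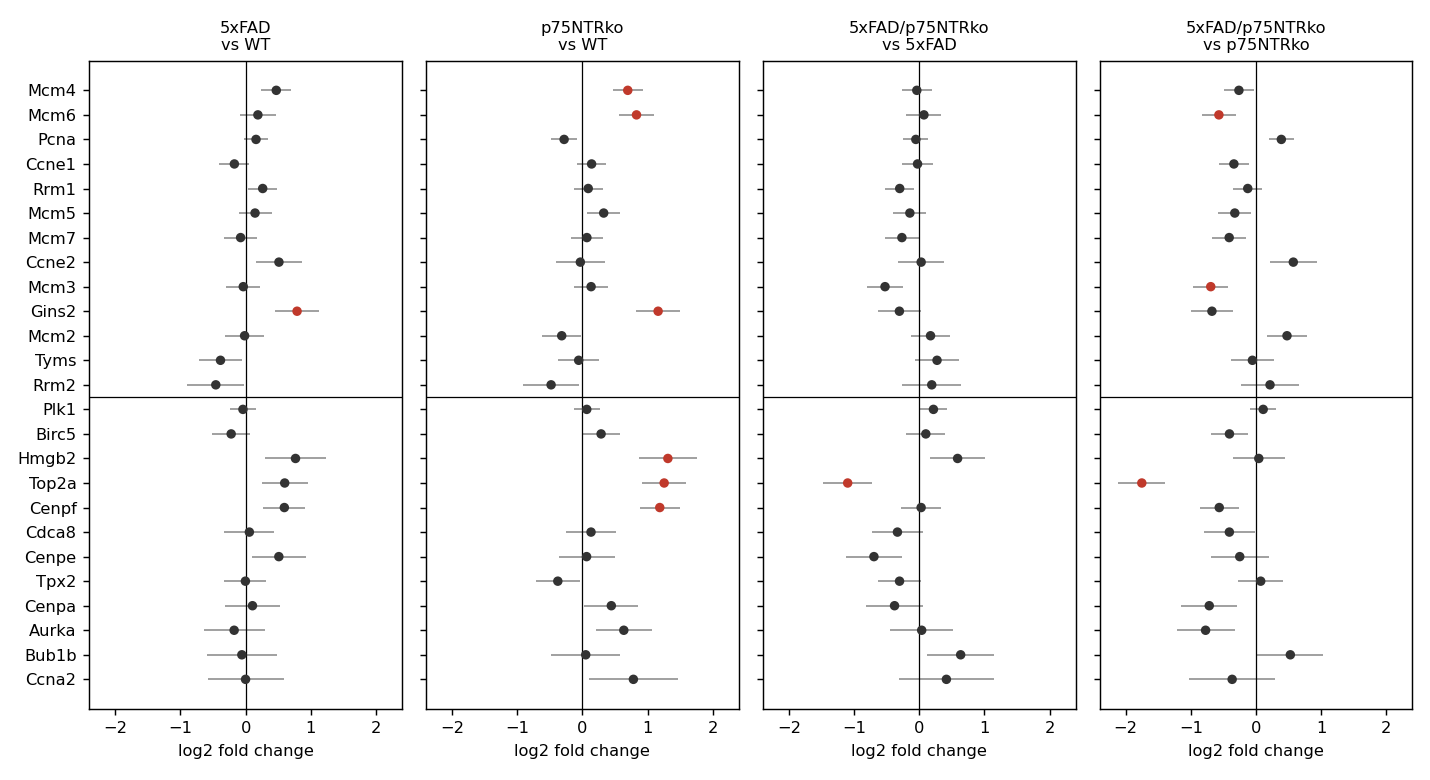
Log2 fold change ± SE (edgeR) of the 25 tested genes in 4 comparisons, S phase above the line and mitosis below it, red where the unadjusted p is at or under 0.05. In p75NTRko against WT the 6 red points are to the right of 0, and Top2a lies at 1.25 there and at -1.75 in 5xFAD/p75NTRko against p75NTRko.

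Of 127 further cell cycle genes on a separate list, 125 had a row and 88 were tested, and edgeR called 0 of 88 in each comparison, as did DESeq2 among the 70 to 125 with an adjusted p. Unadjusted p at or under 0.05 was reached by 11 genes for 5xFAD against WT (12.5% of 88, against 13.9% of all genes tested). It was reached by 6 for p75NTRko against WT, and by 10 in the interaction (11.4% against 9.32%). For 5xFAD/p75NTRko it was reached by 4 genes compared with 5xFAD (4.55% against 5.08%). Compared with p75NTRko it was reached by 4 (4.55% against 6.59%), and compared with WT by 9 (10.2% against 9.95%). These shares lay close to those of all genes tested. For p75NTRko against WT these 6 (4 higher, 2 lower) are 6.82% of 88, below the background of 11.5%, and the median log2 fold change was 0.06. Of the 25 tested genes of mitosis and cytokinesis on this list, 1 was higher and 1 lower at that p, with a median of 0.0008. Of the 19 tested G1 cyclins, kinases and E2F genes 3 were higher and 0 lower (15.8%, median 0.12), of 33 genes of origin licensing and replication 0 were higher and 1 lower (median 0.06), and of 11 inhibitors none reached that p (median -0.02). In the interaction 4 of the 19 G1 genes had that p, all below 0 (21.1%, median -0.20), against 9.32% of all genes tested. Of all 88 genes, 4 were above 0 and 6 below 0 at that p in the interaction, with a median of -0.01. The 25 genes of mitosis and cytokinesis on this list went the other way from the mitosis members. Their median was 0.07, with 15 above 0, against -0.53 over the 12 mitosis members tested.

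Foxm1, a transcription factor of mitotic genes, averaged 0.743 CPM in WT, 2.13 in 5xFAD, 2.26 in p75NTRko and 1.45 in 5xFAD/p75NTRko. Its log2 fold change was 1.55 for p75NTRko against WT (edgeR adjusted p = 0.336), 1.47 for 5xFAD against WT (edgeR adjusted p = 0.272) and -2.08 in the interaction (edgeR adjusted p = 0.413), the signs of Top2a and Cenpf in all 3. Ccnd1, cyclin D1, averaged 55.0, 68.2, 62.6 and 53.3 CPM in the same order of genotypes, with -0.54 in the interaction (edgeR adjusted p = 0.415) and -0.36 for 5xFAD/p75NTRko against 5xFAD (edgeR adjusted p = 0.812). Ccnd2, cyclin D2, was at 98.7, 121, 103 and 101 CPM, with -0.27 in the latter comparison (edgeR adjusted p = 0.878). Cdkn1c, the inhibitor p57, averaged 10.6, 5.16, 9.61 and 5.94 CPM, and its log2 fold change of 5xFAD against WT was -1.02 (edgeR adjusted p = 0.244).

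Lig1, the DNA ligase that joins Okazaki fragments, averaged 36.5 CPM in WT, 29.4 in 5xFAD, 26.4 in p75NTRko and 27.0 in 5xFAD/p75NTRko. Its log2 fold change was -0.46 for p75NTRko against WT (edgeR adjusted p = 0.344) and -0.43 for 5xFAD/p75NTRko against WT (edgeR adjusted p = 0.469), opposite in sign to Mcm4 and Mcm6. Rpa3, a subunit of the single-strand binding protein, averaged 2.29, 5.69, 3.30 and 7.05 CPM, with 1.61 for 5xFAD/p75NTRko against WT (edgeR adjusted p = 0.425). Cks1b, a CDK subunit, averaged 17.9, 18.9, 22.3 and 17.1 CPM, with a log2 fold change of -0.38 for 5xFAD/p75NTRko against p75NTRko (edgeR adjusted p = 0.713). Espl1, separase, averaged 0.854, 1.12, 0.549 and 1.64 CPM, with 1.54 in that comparison (edgeR adjusted p = 0.713).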

How the data were processed

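The authors deposited 1 table of raw counts per gene and library for 12 QuantSeq 3′ mRNA libraries made from hippocampal RNA, with the 4 genotypes and replicate numbers taken from the sample titles. Per the submitters' processing notes, FastQC, HISAT2, SAMtools, HTSeq and edgeR were used with build mm10; the annotation and the strand setting are not given in the sources used here. The 5 summary lines of the table entered neither the library sizes nor the tests: 28.9 to 33.5% of reads had no feature, 18.6 to 25.4% were not aligned, 9.57 to 12.1% were not unique and 0.226 to 0.291% were ambiguous, leaving 32.2 to 38.5% assigned to genes (4316739 to 6683613 counts). No pair of libraries of the same genotype was a duplicate (chi-square per degree of freedom of 3.09 to 17.2). Pairs of different genotypes were not checked in this way.

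Counts of all 12 libraries were fitted with edgeR 4.0.16 (R 4.3.3): filterByExpr kept 13065 genes, TMM scaled the libraries, and a quasi-likelihood test with a mean per genotype gave p-values, adjusted by Benjamini-Hochberg over all 13065 genes with a threshold of 0.05. The biological coefficient of variation was 13.8%. CPM values use TMM library sizes. The procedure was tested on simulated data. Class sums take all listed genes, filtered or not, with 95% exact Poisson intervals. Alternatives were DESeq2 1.42.0, RLE factors, no filter, fits of the compared genotypes only, a replicate block, Xist class as a term (high above 50 CPM) and leaving out each library.

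The members, the further gene lists and the motifs were chosen with earlier results of these data known. Values in every library are given for the 5 members with the highest mean CPM, for members past the threshold and for the 3 with the smallest p in each comparison; of the other cell cycle genes, the 2 with the smallest p in each comparison are named. Gene and promoter coordinates come from RefSeq on GRCm38.p6, the assembly of mm10. H2az1 and H2ax were on the list but had no row under those symbols.

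Markers of 9 cell types and regions were summed per library. Beside those in the results, microglial markers summed to 430 to 519 CPM and endothelial markers to 183 to 250 CPM over all libraries, and 4 of 5 blood markers were at 0 in all 12 libraries.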

Additional observations from a re-analysis of the deposited data

Results flagged for a closer look

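Top2a was picked out because its difference between the libraries labelled p75NTRko and their controls was of opposite sign with and without the 5xFAD transgenes. It was higher in all 3 p75NTRko libraries (5.29 to 8.90 CPM) than in all 3 WT libraries (1.79 to 3.98 CPM), and lower in all 3 5xFAD/p75NTRko libraries (1.64 to 3.12 CPM) than in all 3 5xFAD libraries (3.76 to 5.77 CPM). The test of the difference itself gave a log2 interaction of -2.35 (SE 0.507), which missed the threshold by edgeR (adjusted p = 0.286) and passed it by DESeq2 (adjusted p = 0.0431). Over all genes DESeq2 also called more in the interaction than edgeR did. Top2a was chosen among 25 genes after its values were seen. Xist was high in all 5xFAD/p75NTRko and low in all 5xFAD libraries. The lower Top2a in that pair, and with it the opposite sign, therefore cannot be told apart from Xist class.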

How the results depend on the processing

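At 3 libraries a genotype, 0 members were called by edgeR in each comparison. Of the alternatives, DESeq2 alone called a member, 1 in 5xFAD/p75NTRko against p75NTRko and 1 in the interaction, Top2a both times, and leaving out each library gave 0 to 0. For the 3 members with the smallest p in each comparison no log2 fold change reversed: 319 values kept their direction and side of the threshold, and the 2 of Top2a by DESeq2 passed it. The 37 other fold changes printed above were put through the same alternatives after the data were seen. Of their 661 values 0 passed the threshold and 26 had the other sign, in 12 fold changes of Mcm4, Mcm7, Ccne1, Plk1, Cenpf and Hmgb2 that were themselves at most 0.20 in size. The log2 ratio of the mitosis sum in the interaction was -0.50, and -0.64 without Plk1, its most abundant member. This was the only ratio of summed CPM that moved by more than 1 SD between replicates, and the other 203 did not, leaving out single libraries included. That SD is one of single libraries, against which leaving out 1 of 3 libraries moves a group mean little. Where the library left out is of a genotype not compared, the ratio is unchanged by design. The values with a library left out therefore say little about stability. The number of members at an unadjusted p at or under 0.05 ran from 5 to 7 for p75NTRko against WT and from 2 to 5 for 5xFAD/p75NTRko against p75NTRko. It ran from 2 to 6 in the interaction, and from 0 to 2 for 5xFAD against WT and for 5xFAD/p75NTRko against 5xFAD. For 5xFAD/p75NTRko against WT it ran from 1 to 5. The shares of all genes at that p in the same fits are not reported here, so these ranges cannot be read as results about the members.

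The number of all genes called moved far more, and the cause was not tested. For 5xFAD against WT it was 7, and 102 by DESeq2, 44 with no filter on low counts, 19 with only the genotypes compared, 1 with the replicate block and 0 with Xist class as a term (1 to 57 leaving out single libraries, 57 without WT replicate 3). For p75NTRko against WT it was 0, and 54 by DESeq2, 46 unfiltered, 21 with only the genotypes compared and 1 with Xist class (0 to 26). For 5xFAD/p75NTRko against 5xFAD it was 5, and 22, 14 and 9 in the first 3 of these, 0 with the replicate block and 0 with Xist class (0 to 7). For 5xFAD/p75NTRko against p75NTRko it was 0, and 20 by DESeq2, 6 unfiltered and 1 with Xist class (0 to 25, 25 without 5xFAD/p75NTRko replicate 1). For 5xFAD/p75NTRko against WT it was 0, and 32 by DESeq2, 16 unfiltered and 1 with only the genotypes compared (0 to 4). For the interaction it was 5, and 25 by DESeq2, 15 unfiltered, 3 with the replicate block and 1 with Xist class (3 to 20).

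The replicate numbers do not pair the libraries: 2 of 18 same-numbered pairs correlated above 0.1 in their deviations from the group means. With the replicate block, 6 members kept an unadjusted p at or under 0.05 for p75NTRko against WT, in number, as without it. Depth limits the rare genes: at 3 counts to 0.690 CPM or less, the 13 genes under the filter had 15 to 92 counts each. Tested one by one by edgeR with no filter, 0 were called. DESeq2 also called 0, but for 5xFAD against WT and 5xFAD/p75NTRko against p75NTRko it gave 0 of the 13 an adjusted p.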
